A study of Homo sapiens with 2 samples.

Results

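The 79 genes described here encode the proteins of the cytosolic ribosome, 46 of them for the large subunit and 33 for the small subunit. They were chosen by symbol from the 20033 protein-coding genes of GENCODE 44, an annotation of the human genome build GRCh38. A symbol had to be RPL or RPS followed by a digit, with an A, X, Y1 or Y2 ending allowed, or RPLP0, RPLP1, RPLP2 or RPSA. Kinase genes, readthrough genes and paralogs with another ending, such as RPL3L, were left out. The rule uses symbols alone. Open chromatin was profiled with ATAC-seq, in which a transposase cuts accessible DNA, in 293T cells, an established line of human embryonic kidney origin with the SV40 large T antigen. The MGO library came from 50000 cells kept for 12 h in medium with 0.5 mM methylglyoxal (MGO), a reactive by-product of glycolysis that forms adducts on histones, other proteins and DNA. The control library came from 50000 cells of the same line in the same medium without MGO, which the treatment label names as PBS while the protocol speaks of fresh medium with nothing added. No genetic change separated the groups, and 1 library of each was analysed, so no difference given here has a replicate check and none was tested. Any further library of either condition was not analysed here, and the peak names of both lists carry the number 2 after the condition.

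Cytosolic ribosomal proteins assemble with ribosomal RNA, largely in the nucleolus, into the subunits that translate the messenger RNAs of the cell. Their genes are mostly short and are among the most actively transcribed of a growing cell. Most start transcription at a C that is followed by a run of pyrimidines. This start, the TOP motif, is known for linking the translation of their messages to growth signals through mTOR.

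The sequences around the start were read from GRCh38 at the start of the Ensembl canonical transcript, here called the start. A TOP start, counted as a C followed by at least 4 pyrimidines, was found in 59 of the 79 genes (74.7%) and in 4.59% of all protein-coding genes. The 6 genes below are shown because their control peak ended before the start while their MGO peak reached past it, as described further on. Each line gives 60 bases before the start and 20 from the start onwards, with the pyrimidine run that opens at the start in capitals. RPL18 lies at chr19:48619159-48619238 on the minus strand, RPS19 at chr19:41860195-41860274 on the plus strand, RPS25 at chr11:119018324-119018403 on the minus strand, RPS2 at chr16:1964807-1964886 on the minus strand, RPL26 at chr17:8383174-8383253 on the minus strand and RPLP2 at chr11:809907-809986 on the plus strand.
RPL18: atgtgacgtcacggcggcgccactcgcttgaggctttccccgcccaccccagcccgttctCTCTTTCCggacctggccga
RPS19: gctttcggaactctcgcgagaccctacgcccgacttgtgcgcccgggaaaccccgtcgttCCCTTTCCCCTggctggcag
RPS25: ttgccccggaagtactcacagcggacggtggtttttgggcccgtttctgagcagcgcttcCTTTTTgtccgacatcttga
RPS2: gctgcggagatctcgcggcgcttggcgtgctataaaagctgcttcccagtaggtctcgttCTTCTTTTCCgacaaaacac
RPL26: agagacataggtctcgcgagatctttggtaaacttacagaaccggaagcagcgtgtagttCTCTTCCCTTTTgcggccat
RPLP2: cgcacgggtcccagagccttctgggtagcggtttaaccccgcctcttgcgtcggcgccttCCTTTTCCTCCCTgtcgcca
The run of pyrimidines was 6 bases long in RPS25, 8 in RPL18, 10 in RPS2, 11 in RPS19, 12 in RPL26 and 13 in RPLP2. Its median length was 7 bases over the 79 genes and 0 over all protein-coding genes.

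Other short motifs were counted on both strands in the 250 bases before and the 50 from the start. CCGGAA, the core bound by ETS factors, was present in 44 of the 79 genes (55.7%) against 22.8% of all promoters of that length. In the lines shown it occurs in RPS25 and RPL26 and, on the other strand, in RPL18. ATGGCGG, which resembles the YY1 site, was present in 15 genes (19.0%) against 7.82%, and GCATGCG, which resembles the NRF1 site, in 8 genes (10.1%) against 5.11%. The other motifs were not more frequent than in all promoters. GGGCGG, the core of the SP1 site, was present in 58.2% against 61.3%, CACGTG, the E-box, in 6.33% against 8.76%, and TATAAA in 6 genes (7.59%) against 9.71%. RPS2 is the gene in the lines shown that carries the last of these. GC content had a median of 59.3% against 63.7%. The first exon had a median length of 40 bp against 185 bp, and the gene a median length of 5548 bp against 27470 bp. The AP-1 site, TGACTCA or TGAGTCA, was present in 1 gene (1.27%) against 3.57%.

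The authors called broad peaks with MACS2 in each library after removing multi-mapping reads and equalizing depth, and the lists give for each peak its position, its fold enrichment over background and the −log10 of its p and q values. The 23458 control peaks and 15738 MGO peaks with a q value of 0.01 or less were kept. Read counts are not part of the lists, so the depth behind a peak is unknown. As a check of the cell line, the promoters of VIM, KRT8, KRT18 and PAX2, 4 of 5 genes known from 293T cells, had a peak in both libraries, and LHX1 had none. PTPRC, ALB, INS and MYH7, genes of other tissues, had no peak in either library.

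Most ribosomal protein genes had a peak within 1000 bp of a transcript start in both libraries. In control, 66 of the 79 genes did, or 83.5% (95% Wilson interval 73.9 to 90.1%), against 63.3% of all protein-coding genes. In MGO, 61 did, or 77.2% (66.8 to 85.1%), against 57.8%. These intervals, and those that follow, cover counting error only and treat genes as independent. By subunit, a control peak was present at 38 of 46 large subunit genes and 28 of 33 small subunit genes, and an MGO peak at 36 and 25. The order of the libraries depended on the threshold. With the same number of peaks taken from each list, those of highest −log10 p, a control peak was left at 52 of the 79 genes and an MGO peak at 61. That setting shortened the control list from 23458 to 15738 peaks and left the MGO list whole, so the control count could not rise. With all deposited peaks the counts were 71 and 72. The shares over all protein-coding genes under these settings are not given, so the order is not a trait of these genes.

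The 57 genes with a peak in both libraries also had overlapping peaks. They made up 86.4% of the 66 genes with a control peak (76.1 to 92.7%), close to the 88.1% of all protein-coding genes with a control peak. The overlap covered a median of 86.2% of the control peak. Of these pairs, 55 lay at the start. For RPL6 and RPL36, both of the large subunit, the paired peaks lay at a distant alternative start of the gene. Those peaks also held the start of PTPN11 at RPL6 and of HSD11B1L and MICOS13 at RPL36, and both genes are left out of the positions below.

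A control peak without an MGO peak was found at 9 genes, or 11.4% against 6.92% of all protein-coding genes. They included RPL7A, RPL10A, RPL14, RPL22 and RPL38 of the large subunit and RPS15, RPS21 and RPS27 of the small subunit. Their control peaks were weak, with a −log10 p between 4.26 and 7.31 (median 5.42), against a median of 8.58 for the 57 genes with overlapping peaks. The median of all protein-coding genes was 5.42 without and 10.1 with an overlapping MGO peak. The authors' MGO list also holds weaker peaks, with a q value between 0.01 and 0.1, and such a peak lay within 1000 bp of the start at 8 of the 9 genes. RPS27, a zinc-binding protein of the small subunit, was the exception. Its control peak ran from −119 to 200 bp, counting the start as 0 and the gene as positive.

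An MGO peak without a control peak was found at 4 genes, RPL12, RPL13, RPL41 and RPS16, or 5.06% against 1.43%. RPL12 encodes a protein of the stalk base, where translation factors bind. Its MGO peak ran from −570 to 358 bp with a −log10 p of 5.79, and the control list held a weaker peak from −282 to 415 bp with a −log10 p of 4.23. RPL13 and RPS16 also had a weaker control peak, so that of the 4 only RPL41 had none among all control peaks. RPL6 and RPL36, whose paired control peaks lay at a distant start, also had an MGO peak at the start. There RPL6 had a weaker control peak and RPL36 had none. RPL41 encodes the shortest protein of the ribosome, and its MGO peak, from −358 to 1921 bp, was wide (2280 bp, −log10 p 5.41).

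The remaining 9 genes had no peak in either list, or 11.4% against 35.2% of all protein-coding genes. They were RPL11, RPL19, RPL23, RPL23A, RPL29, RPS4Y1, RPS4Y2, RPS9 and RPS18. With the weaker peaks included, RPL11 had a control peak, RPL23 and RPL29 an MGO peak and RPL23A a peak in each list. RPL19, RPS9, RPS18, RPS4Y1 and RPS4Y2 were left without a peak at the start in both. RPS4Y1 and RPS4Y2 are the Y-linked copies of RPS4X, which had a peak in both libraries (789 bp in control and 893 bp in MGO). Several peaks at the same gene were rare. RPL4 had more than 1 control peak, RPL6 and RPL36 more than 1 MGO peak, and RPL10, RPL27A and RPS29 more than 1 in both libraries.

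**Figure D1:**
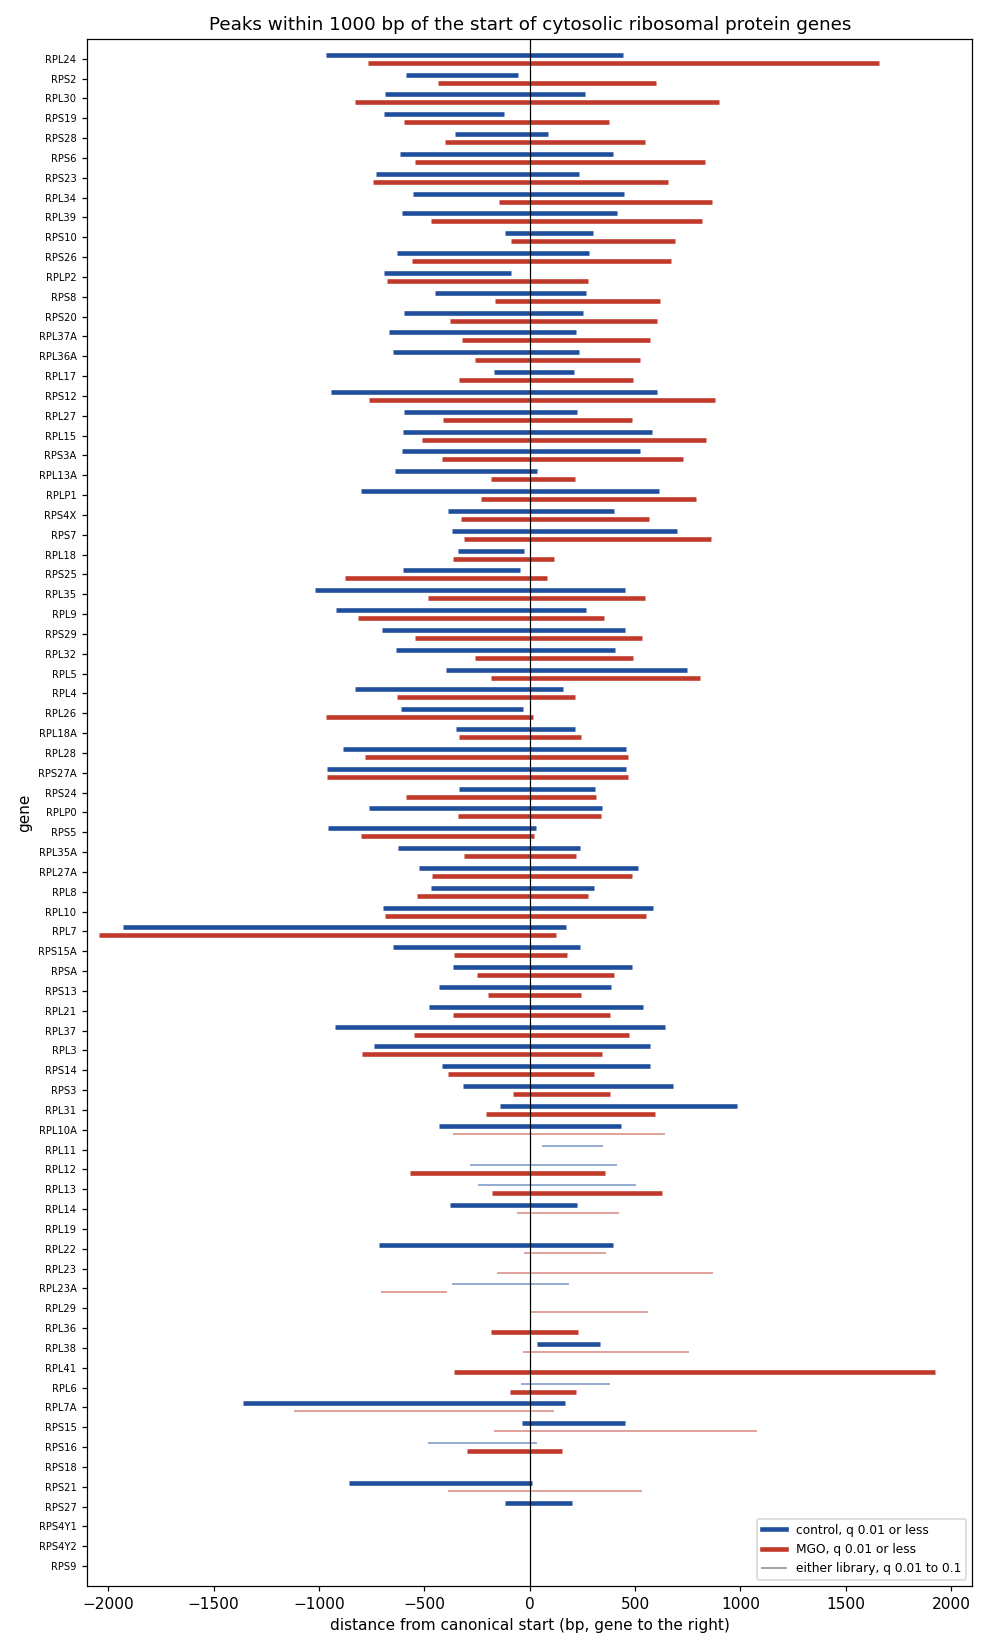
Peaks at the start of 77 of the cytosolic ribosomal protein genes, with the distance from the start in bp on the horizontal axis and the gene to the right of 0. Thick bars are peaks with a q value of 0.01 or less in control (blue) and MGO (red), and thin bars are weaker peaks; the 54 of them with overlapping peaks at the start stand on top, ordered by how far the MGO peak reached beyond the control peak in the gene, and 38 of these have the red bar ending farther to the right.

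Peaks at ribosomal protein genes lay farther into the gene in MGO than in control, with little difference in width. Over the 55 pairs, the control peak had its median edges at −616 and 311 bp from the start, and the MGO peak at −434 and 487 bp. The edge before the start (upstream edge) lay closer to the start in MGO by a median of 106 bp (binomial order-statistic interval 55 to 186 bp), against 66 bp (62 to 69 bp) over 10692 protein-coding genes with such a pair. It was closer at 42 of the 55 genes, or 76.4% (63.7 to 85.6%), against 69.6%. The edge in the gene (downstream edge) lay farther from the start in MGO by a median of 96 bp (24 to 255 bp), whereas over all protein-coding genes it lay nearer by a median of 26 bp (change of −26 bp, −31 to −22 bp).

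The downstream edge was farther at 39 of the 55 genes, or 70.9% (57.9 to 81.2%), against 41.4% of all protein-coding genes. At 21 genes it was more than 200 bp farther, where 11.8% of all protein-coding genes had such a difference, and at 4 genes more than 200 bp nearer, against 18.1%. For the upstream edge, 16 genes were more than 200 bp closer, against 21.2%, and 3 more than 200 bp farther, against 5.56%. Both edges lay farther toward or into the gene at 30 of the 55 genes, or 54.5% (41.5 to 67.0%), against 29.8%. Of the other pairs, 12 had both edges nearer the start, 9 had both edges farther from it, and 4 had the upstream edge farther and the downstream edge nearer.

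**Figure D2:**
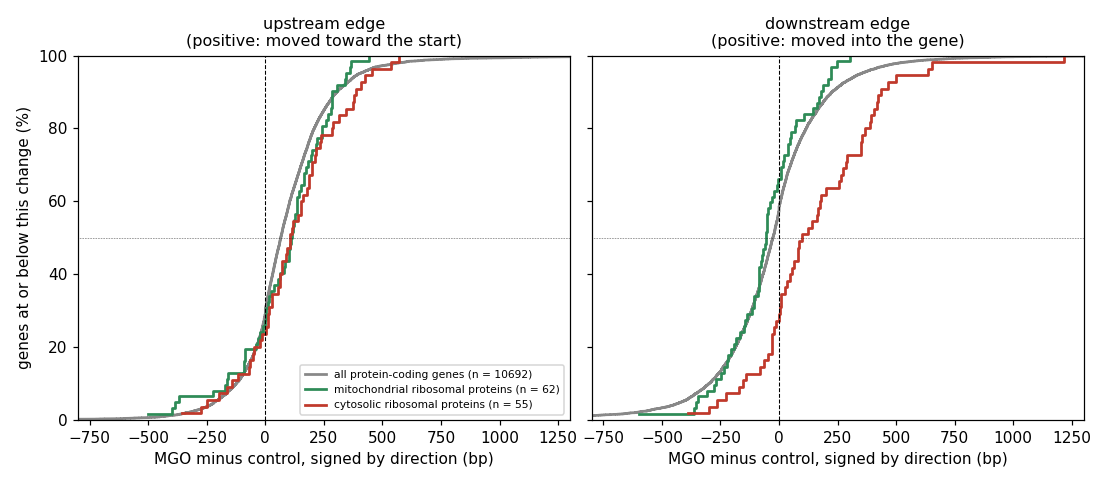
Cumulative share of genes (vertical axis, in %) by the change of the upstream edge (left) and the downstream edge (right) from control to MGO, in bp, for 55 cytosolic ribosomal protein genes (red), 62 mitochondrial ribosomal protein genes (green) and 10692 protein-coding genes (grey); the tails beyond the axis are not drawn. The 3 lines lie close together for the upstream edge, and for the downstream edge the red line lies to the right, with a median of 96 bp against −56 and −26 bp.

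The 6 genes whose sequences are shown above had no part of the start under their control peak. RPS19, which when mutated causes Diamond-Blackfan anaemia, had a control peak from −693 to −120 bp and an MGO peak from −599 to 378 bp. RPLP2, an acidic protein of the stalk that recruits translation factors, had peaks from −691 to −89 bp and from −679 to 278 bp. RPS2, a small subunit protein at the path of the messenger RNA, had peaks from −587 to −54 bp and from −434 to 597 bp. In these 3 genes the MGO peak took in the first exon and reached into the gene. RPS25, which several viral messages need for internal initiation, had peaks from −600 to −44 bp and from −876 to 81 bp. RPL18 had peaks from −341 to −28 bp and from −366 to 113 bp. In RPS25 and RPL18 the MGO peak also took in the first exon, which is 62 and 38 bp long. RPL26, which lies at the exit of the peptide tunnel, had peaks from −610 to −32 bp and from −968 to 15 bp, so its MGO peak extended mainly upstream. Ending before the start was thus seen in 6 of 55 control peaks, against 2.21% of all protein-coding genes, and in 0 MGO peaks, against 2.76%.

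The largest differences of the downstream edge were at RPL24, RPS2 and RPL30. RPL24, a large subunit protein that reaches over to the small subunit, had its downstream edge at 441 bp in control and 1658 bp in MGO, 1217 bp farther. At RPL30 the edge was at 263 bp in control and 899 bp in MGO. At RPS28, a small protein near the exit of the messenger RNA, it was at 85 bp and 549 bp, and at RPS6, the substrate of the S6 kinases, at 396 bp and 833 bp. The opposite was seen at RPL31, a protein at the exit of the peptide tunnel, where the edge was at 984 bp in control and 595 bp in MGO, and at RPS3, a protein at the entry of the messenger RNA, where it was at 682 bp and 383 bp. RPS14, the gene tied to the anaemia of the 5q- syndrome, had the edge at 570 bp and 305 bp, and RPL3, a protein close to the peptidyl transferase centre, at 570 bp and 345 bp. The 16 genes with a nearer edge were thus fewer than the 39 with a farther one, but their differences reached 389 bp.

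The control peaks of ribosomal protein genes ended nearer the start than those of other genes, with a median of 311 bp (253 to 447 bp) against 602 bp (595 to 610 bp) over all protein-coding genes. The same comparison was therefore made among genes with the control edge in the same range. Where the control edge lay between 221 and 499 bp, it was farther in MGO at 21 of 27 ribosomal protein genes (77.8%, 59.2 to 89.4%), with a median of 96 bp. Among 2995 other protein-coding genes in that range it was farther at 51.8% (50 to 53.6%), with a median of 7 bp. Where the control −log10 p lay between 6.63 and 11.4, it was farther at 22 of 27 ribosomal protein genes (81.5%) and at 40.2% of 4430 others. Where the control peak was between 783 and 1136 bp wide, it was farther at 16 of 27 (59.3%, 40.7 to 75.5%) and at 44.5% of 3603 others (42.9 to 46.1%).

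In the gene structure, the downstream edge lay in intron 1 at 32 of the 55 genes in control and 27 in MGO. It lay in a later intron at 10 and 17 genes, in a later exon at 4 and 8, and in exon 1 at 3 genes in each library. Over all protein-coding genes the share in intron 1 was 77.3% in control and 75.9% in MGO, in a later intron 4.96% and 4.89%, in a later exon 3.27% in both, and in exon 1 11.7% and 12.7%.

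Counted by bases over all 79 genes, the peaks covered less DNA before the start and more after it in MGO. In the 1000 bp before the start, control peaks covered 37227 bp (a mean of 471 bp per gene) and MGO peaks 28482 bp (361 bp), a ratio of 0.765 against 0.815 over all protein-coding genes. Fewer bases were covered in MGO at 48 of the 79 genes, or 60.8%, against 40.7%, and more at 20, or 25.3%, against 15.4%. In the 1000 bp from the start onwards, control peaks covered 21420 bp (271 bp per gene) and MGO peaks 29311 bp (371 bp), a ratio of 1.37 against 0.904. More bases were covered in MGO at 45 genes, or 57% (46.0 to 67.3%), against 21.5%, and fewer at 24, or 30.4%, against 33.3%. With only the stronger peaks, of a −log10 q of at least 5, this ratio was 0.823 against 0.735 over all protein-coding genes. That setting left 36 genes with a control peak and 20 with an MGO peak. Among the 19 pairs at the start that it left, 13 had a farther downstream edge. With a fold enrichment of at least 4, which left 6 and 2 genes, the ratio was 0.320 against 0.481, and RPSA, the pair that remained, had a nearer downstream edge.

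The start itself lay under a control peak at 56 of the 79 genes (70.9%), against 56.6% of all protein-coding genes, and under an MGO peak at 61 (77.2%), against 51.7%. At 600 bp before the start 37 genes (46.8%) were covered in control and 16 (20.3%) in MGO, where all protein-coding genes had 23% and 17.3%. At 300 bp into the gene 33 and 45 were covered (41.8% and 57%), against 49.3% and 44.9%. At 500 bp into the gene 14 were covered in control and 27 in MGO (17.7% and 34.2%), where all protein-coding genes had 35.9% and 32.6%.

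**Figure D3:**
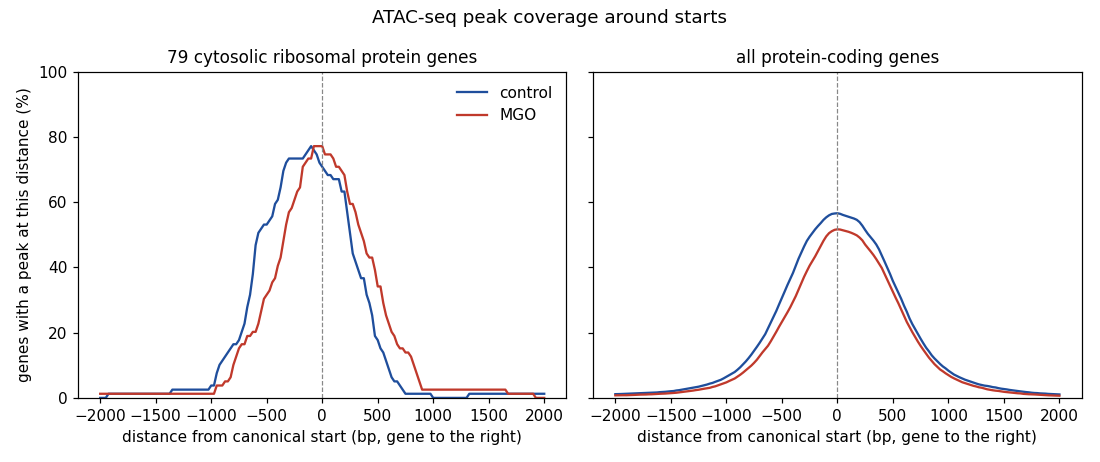
Share of genes (vertical axis, in %) with a peak at each distance from the start (horizontal axis, in bp, gene to the right), in control (blue) and MGO (red), for the 79 cytosolic ribosomal protein genes (left) and all 20033 protein-coding genes (right). Within 1000 bp on the left, the red line lies below the blue one for most of the way before the start and above it in the gene, and on the right it lies below on both sides of the start.

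The width of the peak differed little between the libraries. Over the 57 pairs its median was 987 bp in control and 958 bp in MGO, and the ratio of MGO to control had a median of 1.01 (0.929 to 1.12), against 0.910 (0.905 to 0.914) over all protein-coding genes. The MGO peak was the narrower at 24 of the 57 genes, or 42.1% (30.2 to 55.0%), against 67.1%. Without RPL6 and RPL36, whose paired peaks lay at a distant start, the ratio over 55 pairs was 1.01 (0.912 to 1.13). The MGO peak was the narrower at 24 of these 55 (43.6%). The narrowest relative to control were RPS3 (1002 bp in control and 464 bp in MGO, ratio 0.463), RPS13 (818 and 444 bp, ratio 0.543), RPL13A (678 and 402 bp, ratio 0.593), RPS15A (890 and 537 bp, ratio 0.603) and RPL35A (865 and 531 bp, ratio 0.614). RPL13A is known for a role in the control of inflammatory messages outside the ribosome. The widest relative to control were RPL17 (379 and 827 bp, ratio 2.18), RPS28 (440 and 953 bp, ratio 2.17), RPS2 (534 and 1032 bp, ratio 1.93), RPS10 (418 and 780 bp, ratio 1.87) and RPL30 (951 and 1729 bp, ratio 1.82). Of these, RPL17, RPS28, RPS2 and RPS10 had control peaks of 534 bp or less.

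In strength, the peaks of ribosomal protein genes stood below the middle of the promoter peaks of their list. Fold enrichment in control ran from 2.26 to 4.41 over the 66 genes, with a median of 3.41, and was 3.65 over all protein-coding genes with a peak. The median gene stood at the 36.6th percentile of these (27.5 to 49.8). With only peaks at the start, which leaves out the distant control peaks of RPL6 and RPL36, it stood at the 35.4th percentile over 64 genes. In MGO it ran from 2.18 to 4.13 over 61 genes, with a median of 3.10 against 3.39, and the median gene stood at the 30.9th percentile (24.8 to 39.4). Within pairs, fold enrichment was lower in MGO at 45 of 57 genes, or 78.9%, against 75.2% of all protein-coding genes, with a median ratio of 0.889 (0.860 to 0.961) against 0.921.

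The control peaks of highest −log10 p were at RPL15, a core protein of the large subunit (19.7 in control and 15.8 in MGO), RPS29, a zinc-binding protein of the small subunit (18.6 and 7.19), and RPL7 (17.8 and 11.9). The peak at RPL7 was the widest of the control peaks at these genes (2103 bp) and also held the start of RDH10, which is transcribed away from it. The lowest were at RPL7A (4.26), RPS2 (4.38 in control and 5.47 in MGO) and RPS15 (4.43), and RPL7A and RPS15 had no MGO peak. A higher −log10 p in control than in MGO was found at 43 of 57 pairs (75.4%), against 78.7% of all protein-coding genes.

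**Figure D4:**
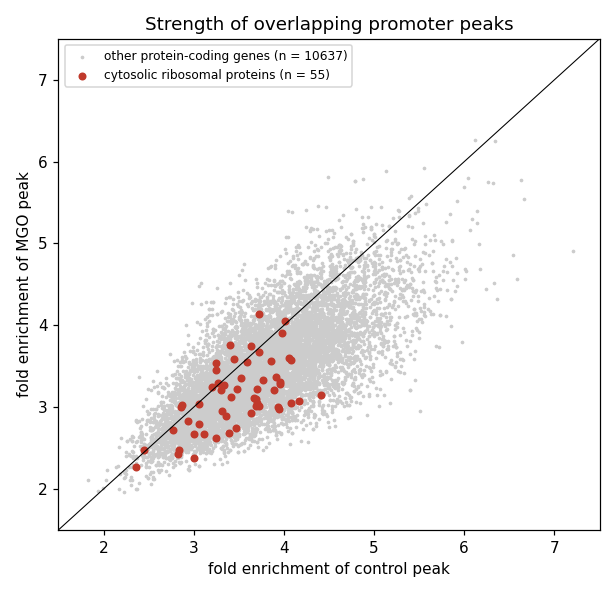
Fold enrichment over background of the control peak (horizontal axis) and the overlapping MGO peak (vertical axis) at the start, as the authors' lists give it, for 55 cytosolic ribosomal protein genes (red) and 10637 other protein-coding genes (grey). The line marks equal values; most points of both kinds lie below it, and the red points keep to the lower and middle range of the grey ones.

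The median downstream edge was farther in MGO for both subunits. Its change was 82 bp (−2 to 255 bp) over 31 large subunit genes, 21 of them with a farther edge, and 164.5 bp (3 to 388 bp) over 24 small subunit genes, 18 of them with a farther edge. The ratio of covered bases in the 1000 bp from the start was 1.35 for the large and 1.40 for the small subunit. Among the stalk genes, RPLP0, the protein that anchors the stalk, had peaks of 1108 bp in control and 681 bp in MGO with a downstream edge that was almost the same (342 and 340 bp). RPLP1 had the edge at 612 and 788 bp. RPSA, a small subunit protein also known as the laminin receptor precursor, had peaks of 849 and 651 bp and the edge at 484 and 402 bp, nearer in MGO.

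Of 9 genes known to cause Diamond-Blackfan anaemia, an inherited failure of red cell production, 8 had overlapping peaks, and 7 of these 8 had a farther downstream edge in MGO (87.5%, 52.9 to 97.8%), against 70.9% of all ribosomal protein genes with a pair and 41.4% of all protein-coding genes. These 9 are a chosen list that may leave out other genes of the disease, so the share holds for them alone. RPS10 had the edge at 299 bp in control and 691 bp in MGO, RPS26 at 281 and 669 bp, RPS7 at 701 and 862 bp, and RPL5, which binds MDM2 when outside the ribosome, at 744 and 809 bp. RPS24, counted among the 7, had the edge at nearly the same place in both libraries (311 and 314 bp), RPS19 is given above, and RPL35A had it nearer in MGO (239 and 219 bp). RPL11, the partner of RPL5 in binding MDM2, had no peak in either list.

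A control peak at a ribosomal protein gene can belong to a neighbour as well. A gene on the opposite strand started within 1000 bp of the start at 35 of the 79 genes. A start of another gene, readthrough genes included, lay in 33 of the 66 control peaks, such as SPHK2 at RPL18, TRAPPC4 at RPS25, PIDD1 at RPLP2 and NKIRAS1 at RPL15. Both counts were made for ribosomal protein genes alone, so whether they differ from other genes is not known. The median change of the downstream edge was 133 bp (32 to 350 bp) over 28 pairs with a neighbour on the opposite strand and 82 bp (−29 to 265 bp) over 27 pairs without. When only control peaks without another gene's start were counted, the downstream edge was farther at 17 of 26 genes (65.4%, 46.2 to 80.6%), with a median of 73.5 bp (−29 to 202 bp), and the ratio of covered bases in the 1000 bp from the start was 1.03. The width ratio over these 26 pairs was 0.931 (0.720 to 1.10), and the MGO peak was the narrower at 14 of them (53.8%, 35.5 to 71.2%), both on the other side of no change from the values over all pairs. These 33 genes were also taken for having a control peak, which leaves out genes with a peak in MGO alone. Over all 66 genes with a control peak the covered ratio was 1.27, over the 33 whose control peak held another start it was 1.58, and over the 12686 protein-coding genes with a control peak it was 0.889. Among the 28 genes that host a small nucleolar RNA, 14 of 22 pairs had a farther edge (63.6%), and among those without, 25 of 33 (75.8%). Among genes with a TOP start, 26 of 41 pairs had a farther edge (63.4%, 48.1 to 76.4%), and among those without, 13 of 14 (92.9%, 68.5 to 98.7%). In 860 other protein-coding genes with a TOP start, 527 of them with a pair, the edge was farther at 41.7% (37.6 to 46.0%), with a median change of −21 bp.

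The other gene groups of translation were measured in the same way. The 78 mitochondrial ribosomal protein genes, whose products build the separate ribosome of the mitochondrion, had a farther downstream edge at 21 of 62 pairs (33.9%, 23.3 to 46.3%), with a median change of −56 bp (−86 to −8 bp) and a ratio of covered bases from the start of 0.871. Their upstream edge was closer by a median of 112 bp, near the 106 bp of the cytosolic genes. The 71 genes of cytosolic translation factors, with symbols EIF or EEF, had a farther edge at 31 of 59 pairs (52.5%, 40 to 64.7%), a median change of 21 bp (−36 to 106 bp) and a ratio of 1.06. Of 30 ribosome biogenesis genes, such as the box C/D protein FBL, 13 of 28 pairs had a farther edge (46.4%, 29.5 to 64.2%), with a median change of −14.5 bp and a ratio of 0.940. A control peak was present at 69 of 78 mitochondrial ribosomal protein genes, 63 of 71 translation factor genes and all 30 biogenesis genes.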

How the data were processed

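ATAC-seq of 1 control and 1 MGO library of 293T cells was analysed. Per the methods and processing notes, the authors aligned the reads with BWA 0.7.15 to GRCh38.p12, used Picard to remove reads that were mitochondrial or mapped to several places, sampled reads to equal depth and called broad peaks with MACS2, whose settings are not given in the sources used here. Ribosomal protein genes have many processed pseudogenes. Reads that matched a gene and a pseudogene equally well would be among those removed in both libraries, and how many were lost was not measured. The deposited lists give a fold enrichment (a ratio), −log10 p and −log10 q values from the authors' caller, and a score that was not used. Depth per peak is unknown.

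Peaks whose −log10 q reached 2, on the autosomes and chromosomes X and Y, were matched to GENCODE 44 transcript starts within 1000 bp, with an overlap of at least 1 bp between lists. The promoter peak was the nearest to the canonical start. Shares have Wilson and medians binomial order-statistic 95% intervals. Members and gene lists were chosen with earlier results of these data known. Genes were named for having no peak or a peak in 1 list, for extreme width ratio or −log10 p, for several peaks, or as stalk, RPS4, RPSA or anaemia genes; those named for their edges were chosen after their values were seen. Some genes that enter the counts are not reported here by name. Alternatives were other thresholds, equal numbers of peaks, merged peaks, other windows, starts, overlaps and chromosomes. The code was tested on simulated data. Python 3.11.15, numpy 2.4.6, pandas 2.3.3 and matplotlib 3.10.9 were used.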

Additional observations from a re-analysis of the deposited data

How the results depend on the processing

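No paired analysis was possible because 1 peak list of each group was used here and no result comes from a test. Of 119 values recomputed under another setting, 100 stayed close to the reported one (counts and covered ratios within 1.5 times, shares and medians within the reported 95% interval), 16 moved and 3 reversed. Merging peaks within 200 bp returned the reported values, and a window of 500 bp changed only the percentiles. The 100 therefore include values that did not change at all. The cause was not tested except where a setting leaves fewer peaks by construction. With a −log10 q of at least 5, a peak was left at 36 ribosomal protein genes in control and 20 in MGO, and 55.6% of control peaks overlapped. The ratio of covered bases was 0.430 before the start, against 0.660 over all protein-coding genes. After the start it was 0.823, which is reversed, against 0.735. With a fold enrichment of at least 4, the counts were 6 in control and 2 in MGO, and 16.7% (1 pair, RPSA) overlapped. That pair had a width ratio of 0.767, so 100% were narrower, and its downstream edge changed by −82 bp, so 0.0% were farther. The percentiles were 10.9 in control and 18.5 in MGO. The covered ratios were 0.178 before and 0.320 after the start, against 0.401 and 0.481 over all protein-coding genes. The overlap was 95.8% with all deposited peaks, 94.2% with equal numbers of peaks and 74.2% with 50% of both peaks required. The counts and overlaps under these settings are for ribosomal protein genes alone. The shares over all protein-coding genes are not given for them. The downstream edge stayed farther at 65.4% to 72.3% of these genes under the other settings, and under a −log10 q of at least 5 at 68.4%. With control peaks that hold no other gene's start, the width ratio was 0.931 and the share of narrower peaks 53.8%, inside those intervals but past no change. The share of farther edges, the covered bases and the set of peaks without another gene's start were chosen after seeing the data.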

Other observations

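The 11 ribosomal protein genes left out by the symbol rule, such as FAU, RACK1 and the paralogs RPL3L and RPL10L, were measured in the same way. A control peak was found at 9 of them, and all 9 overlapped an MGO peak. The downstream edge was farther in MGO at 3 of 9, with a median change of −71 bp (−258 to 335 bp), and the ratio of covered bases in the 1000 bp from the start was 0.985.

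Peaks were also counted over the processed and other pseudogenes of the ribosomal protein genes, 1588 in GENCODE 44. A control peak overlapped 10 of them, or 0.630% (95% Wilson interval 0.342 to 1.15%), and an MGO peak 8, or 0.504% (0.256 to 0.991%). Reads that match a gene and a pseudogene equally well were removed by the authors before peaks were called.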
